A study of Bos taurus with 129 samples.

Results

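A set of 8 genes of antibody-secreting cells (the members) was followed in the blood of newly received beef cattle: JCHAIN, MZB1, XBP1, PRDM1, TNFRSF17, IRF4, DERL3 and POU2AF1. They were chosen by symbol from a count table of 32395 genes. All 8 members were in the table and all passed the filter on low counts, which left 18937 genes tested in all cattle. The members can be sorted by role into products of the secreted antibody and its handling (JCHAIN, MZB1, DERL3), the secretory regulator XBP1, the regulators of B cell fate (PRDM1, IRF4, POU2AF1) and a survival receptor (TNFRSF17).

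When a B cell meets its antigen it can divide and turn into a plasmablast and then a plasma cell, which enlarges its endoplasmic reticulum and releases antibody. PRDM1, IRF4 and XBP1 drive that change, and chaperones, disulfide isomerases and degradation factors of the endoplasmic reticulum carry the load of folding heavy and light chains. In blood such cells are rare and appear for short periods after infection or vaccination, while most mature plasma cells reside in bone marrow and gut.

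Whole blood RNA had been collected from 26 crossbred beef steers on arrival (day 0) and again on days 13, 28, 45 and 60, which gave 25 libraries on day 13 and 26 on each other day. The library of 1 healthy AAC animal on day 13 was not analysed here. The animals received copper, cobalt, manganese and zinc in 1 of 3 forms: as sulfates (INR), complexed to amino acids (AAC), or complexed together with an oral drench given before shipment, on day 0 and at any treatment for illness (COMBO). A total of 14 animals (4 AAC, 3 COMBO, 7 INR) were labelled as treated for bovine respiratory disease (BRD) and 12 (4 in each treatment) as healthy. The label covers all 60 days and carries no date of illness, so a library of a BRD animal may precede, accompany or follow the illness. All animals, healthy and BRD alike, were given a respiratory virus vaccine and doramectin on day 0 and a second vaccination between the day 13 and day 28 samplings, so no group was without vaccine. There was no group without a supplement. By the pen on day 0, the 4 healthy COMBO animals shared pen 5 and the 3 COMBO animals with BRD shared pen 6, so that pen and disease label cannot be told apart within COMBO.

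Libraries held 3.16e+07 to 6.17e+07 counts (median 4.43e+07). Genes that define blood cells were present throughout, among them CD3E of T cells (144 to 680 CPM, counts scaled to a common library size), CD79A of B cells (336 to 1120 CPM) and CSF1R of monocytes (155 to 697 CPM). SDC1, the classical surface marker of mature plasma cells, lay near 0 with a median of 0.136 CPM, and IL3RA of plasmacytoid dendritic cells had a median of 0.0917 CPM. Library correlations over all genes were lowest for the day 13 library of INR animal 50 (median r with the other libraries 0.943), against a median of 0.966 over libraries. The day 60 library of INR animal 40 had low RNA integrity by the study's records. Levels are given in CPM after TMM scaling. They were not divided by transcript length, so levels are compared between libraries of a gene and never between genes. In whole blood, fewer cells of a type and less RNA per cell cannot be told apart.

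Time was compared within animals, since the same steers were bled on each day (edgeR quasi-likelihood test with animal as a block; a gene was called at a false discovery rate, FDR, under 0.10 over all genes tested). Transcripts of the joining chain, of the survival receptor and of the antibody chaperone were higher at days 13 or 28 than on arrival and had returned by days 45 and 60, whereas PRDM1 stayed below its arrival level and POU2AF1 above it. Change was widespread over all genes. The background was 33.21% of genes called for day 13 against day 0 (17.29% higher and 15.92% lower) and 36.04% for day 28 (18.62% higher and 17.42% lower). It was 30.95% for day 45 (15.78% higher and 15.17% lower) and 33.36% for day 60 (16.99% higher and 16.38% lower). Of the 8 members, 3 were called at day 13, 6 at day 28, 2 at day 45 and 2 at day 60. The members' median log2 change was 0.08, 0.17, 0.04 and -0.04 on the 4 days, and the all-gene medians lay between -0.01 and 0.01. The share of members called was therefore close to the background on days 13, 45 and 60.

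**Figure D1:**
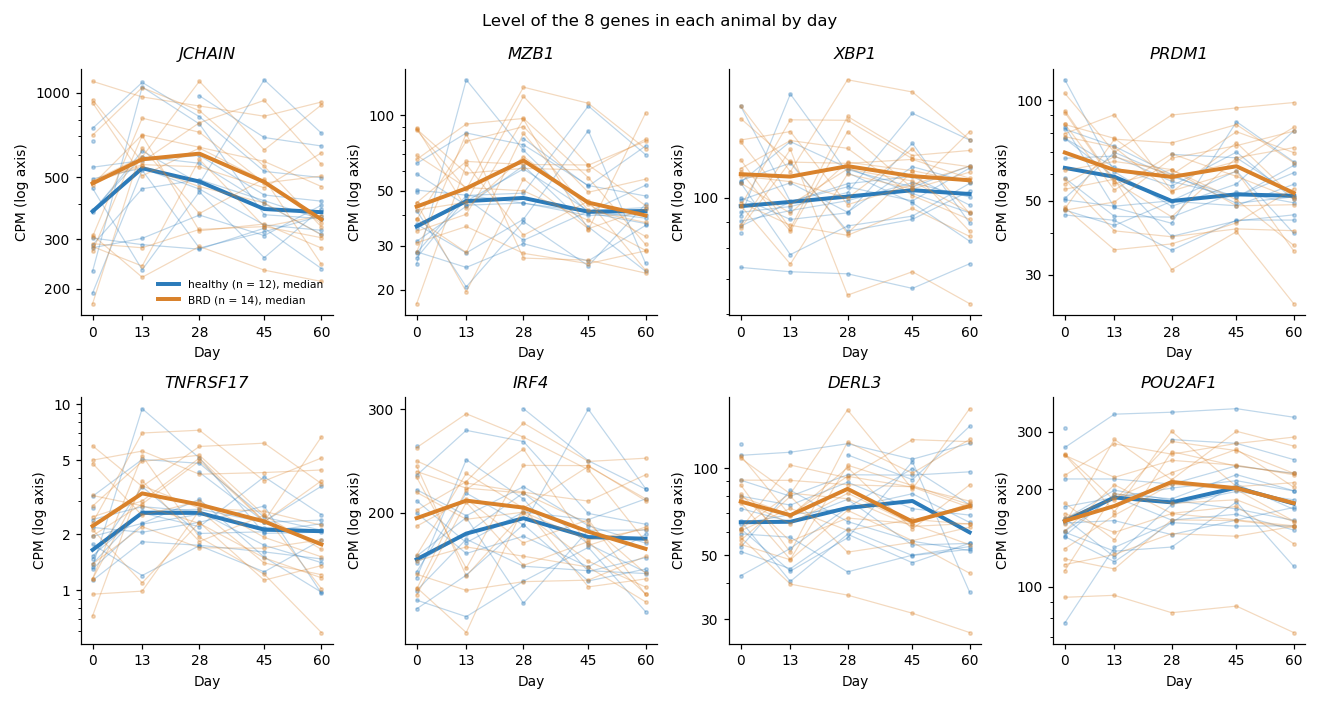
CPM (log axis) of each of the 8 genes against day, with a thin line for each animal and a thick line for the median of healthy (blue, n = 12, 11 on day 13) and BRD (orange, n = 14) animals. The medians of JCHAIN and TNFRSF17 rise from day 0 to day 13 in both groups, and single animals cross most of the range of each gene.

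TNFRSF17 encodes BCMA, a receptor for survival signals that plasma cells carry on their surface. Its levels ran from 0.727 to 5.96 CPM on day 0 (median 1.95), from 0.987 to 9.44 CPM on day 13 (median 2.84) and from 1.69 to 7.23 CPM on day 28 (median 2.70). Day 45 held 1.13 to 6.163 CPM (median 2.24) and day 60 held 0.591 to 6.67 CPM (median 1.96). The ranges overlapped on all days, but the lowest library of day 28 lay above the lowest of every other day. Within animals, 19 of 25 were higher on day 13 than on day 0, and 21 of 26 on day 28. The log2 change was 0.62 ± 0.15 (SE; edgeR FDR = 0.00141) at day 13 and 0.55 ± 0.15 (FDR = 0.0028) at day 28. At day 45 it was 0.10 and at day 60 -0.00088, neither called, and from day 28 to day 45 the gene fell by 0.45 ± 0.15 (FDR = 0.0199), with 20 of 26 animals lower. The day 13 and day 28 calls were lost in BRD animals alone, and the call from day 28 to day 45 without the animal block and in each label alone. TNFRSF17 rests on the fewest reads of the members, 26 to 394 counts a library. In RefSeq its annotated span also contains GSPT1, a translation termination factor, and whether the counting used strand is not given in the sources used here. The log2 CPM of the pair correlated at r = 0.24 over all libraries.

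JCHAIN encodes the joining chain that links IgM and IgA into polymers. It ran from 177 to 1100 CPM on day 0 (median 419), from 220 to 1090 CPM on day 13 (median 568) and from 277 to 1101 CPM on day 28 (median 553). On day 45 the median was 422 CPM and on day 60 it was 365 CPM. The ranges overlapped almost fully, so the change shows within animals rather than between days: 17 of 25 animals were higher on day 13 than on day 0 and 18 of 26 on day 28. The log2 change was 0.37 ± 0.12 (edgeR FDR = 0.0109) at day 13 and 0.32 ± 0.11 (FDR = 0.0266) at day 28. It was 0.06 at day 45 and -0.08 at day 60, neither called. From day 28 to day 45 JCHAIN fell by 0.25 ± 0.11 (FDR = 0.0972), with 19 of 26 animals lower. That call was lost with limma voom, with a looser filter on low counts, without the animal block, at FDR 0.05 and in each label alone. The day 13 call was lost without the animal block and in BRD animals alone, and the day 28 call without the block and in each label alone.

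MZB1 encodes a resident of the endoplasmic reticulum that assists assembly of IgM. Levels ran from 17.6 to 89.1 CPM on day 0 (median 40.01), from 19.7 to 139 CPM on day 13 (median 46.5) and from 26.8 to 130 CPM on day 28 (median 61.17). Medians on days 45 and 60 were 41.5 and 41.1 CPM. The gene was higher on day 28 than on day 0 in 18 of 26 animals, with a log2 change of 0.41 ± 0.15 (edgeR FDR = 0.0278), a call that was lost in each label alone. At day 13 the change was 0.24 ± 0.15 (FDR = 0.244) and was not called. From day 28 to day 45, 22 of 26 animals were lower, but the change of -0.31 ± 0.15 did not pass the threshold by edgeR (FDR = 0.114). DESeq2 and limma voom called it (FDR = 0.0797 and 0.0989).

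PRDM1 encodes BLIMP-1, which shuts down the B cell program in plasma cells and is also made by T cells and myeloid cells. It moved the other way. Levels ran from 45.3 to 115.13 CPM on day 0 (median 64.27), from 35.6 to 90.5 CPM on day 13 (median 58.9) and from 31.07 to 90.26 CPM on day 28 (median 54.4). Day 45 had a median of 57.6 CPM and day 60 of 51.7 CPM. The ranges overlapped, and 19 of 26 animals were lower on day 28 than on day 0, as were 19 of 26 on day 60. The log2 change was -0.34 ± 0.08 (edgeR FDR = 0.000572) at day 28 and -0.29 ± 0.08 (FDR = 0.00401) at day 60. At day 13 it was -0.20 ± 0.08 (FDR = 0.067) and at day 45 -0.20 ± 0.08 (FDR = 0.0665). The day 13 call was lost when any 1 of animals 6, 9, 27, 30, 39, 41, 42, 49 and 54 was left out (FDR up to 0.155), without the day 13 library of animal 50 (-0.18 ± 0.08, FDR = 0.105), and in each label alone. The day 45 call was lost without animal 6, 39, 46 or 49 (FDR up to 0.141), in each label alone and with limma voom (FDR = 0.114). Both the day 13 and the day 45 call were also lost without the animal block and at FDR 0.05. The day 60 call was lost in healthy animals alone. The summed level of 10 monocyte markers also had lower medians after day 0. That sum ran from 1913 to 11529 CPM on day 0 (median 4361) and from 1452 to 5223 CPM on day 13 (median 2987), with medians of 2877, 3173 and 2910 CPM on the later days. Of the 10 markers, 6 were lower on day 13 than on day 0, 7 on day 28 and 8 on day 60, beside 15.92%, 17.42% and 16.38% of all genes. CD14 fell by 1.19 ± 0.12 on the log2 scale at day 13 (edgeR FDR = 1.47e-14). Over all libraries the mean of these markers correlated with PRDM1 at r = 0.43, and at 0.25 after removal of animal and day means. Neutrophil markers gave the same values, and T cell markers gave 0.36 and 0.18. The part of other cells in the PRDM1 values was not tested.

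POU2AF1 encodes OCA-B, a coactivator that B cells need for germinal centres and that plasma cells keep. Levels ran from 77.4 to 308 CPM on day 0 (median 159), from 83.2 to 345 CPM on day 28 (median 186) and from 87.19 to 354 CPM on day 45 (median 201). The ranges nearly coincide, yet 21 of 26 animals were higher on day 45 than on day 0. The log2 change was 0.22 ± 0.06 at day 28 (edgeR FDR = 0.00191), 0.28 ± 0.06 at day 45 (FDR = 8.89e-05) and 0.14 ± 0.06 at day 60 (FDR = 0.0708). At day 13 it was 0.09 and not called. The day 28 call was lost without the animal block and in healthy animals alone, and the day 45 call without the block. The day 60 call was lost without animal 6, 17, 29, 41, 42 or 43 (FDR up to 0.155), in each label alone, without the block, at FDR 0.05 and with limma voom (FDR = 0.156). From day 45 to day 60, 21 of 26 animals fell, by 0.15 on the log2 scale in the fit, which was not called (FDR = 0.128).

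IRF4 encodes a factor that plasma cells need at high dose and that activated T and B cells also make. It ran from 138 to 259 CPM on day 0 (median 179.7) and from 140 to 300.5 CPM on day 28 (median 202). The log2 change at day 28 was 0.12 ± 0.05 (edgeR FDR = 0.0759), with 17 of 26 animals higher. The call was lost without animal 3, 18, 31, 34, 41 or 57 (FDR up to 0.156), without the animal block, at FDR 0.05 and in each label alone. IRF4 was not called on the other days.

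XBP1 encodes the factor that enlarges the secretory apparatus after its transcript is spliced in stress of the endoplasmic reticulum. It had a median between 98.39 and 106.4 CPM on each day, and its log2 changes from day 0 lay between -0.05 and 0.02, with an SE of 0.06 and no call. The counts do not separate the spliced from the unspliced transcript. DERL3, a channel component that returns misfolded proteins from the endoplasmic reticulum for degradation, had daily medians between 66.9 and 78.2 CPM and no call against day 0, with log2 changes between -0.12 and 0.10.

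**Figure D2:**
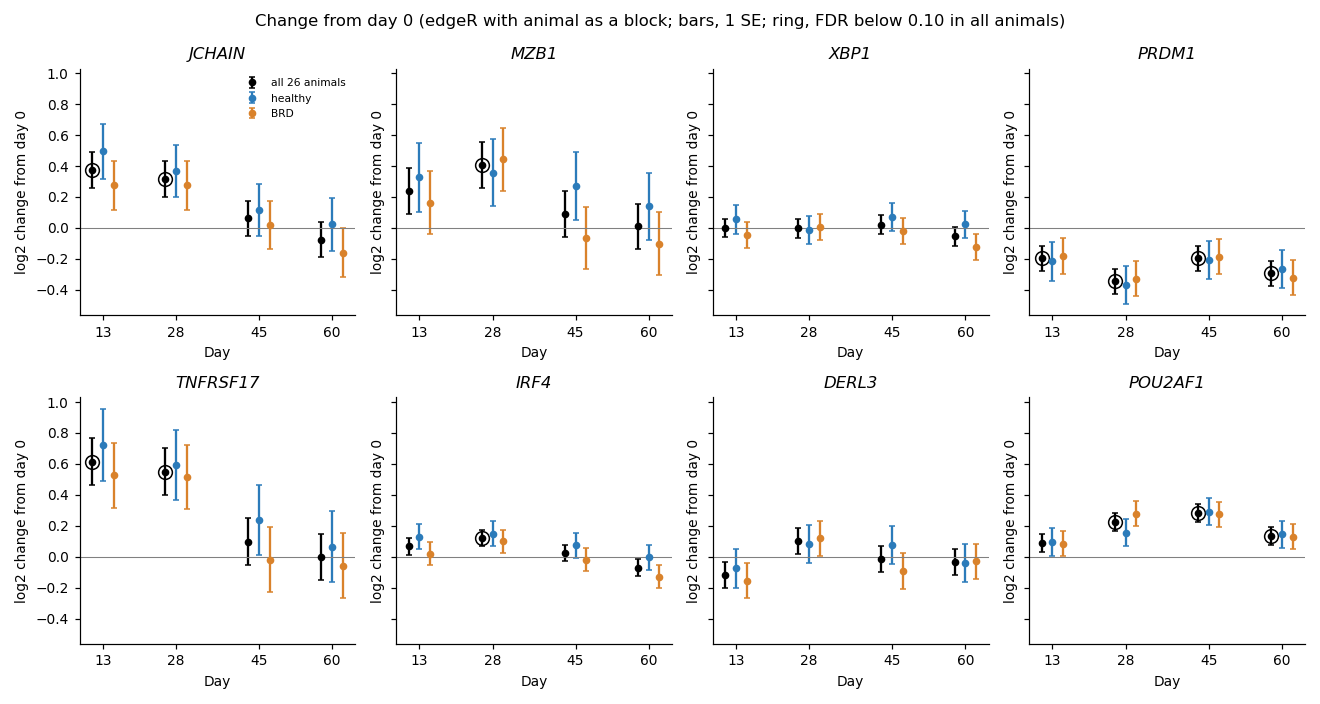
Log2 change from day 0 for the 8 genes at days 13, 28, 45 and 60 in all 26 animals (black), healthy animals (blue) and BRD animals (orange), with bars of 1 SE from edgeR and a ring where the FDR over all animals was under 0.10. TNFRSF17 has rings at 0.62 and 0.55 on days 13 and 28, PRDM1 has rings below 0 on all 4 days, and the blue and orange points differ by less than 2 SE for each gene and day.

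Between neighbouring samplings, no member was called from day 13 to day 28 by edgeR (background 1.964% of genes), none by DESeq2 or limma voom, and 2 members (DERL3 and POU2AF1, both with estimates above 0) had an unadjusted p under 0.05, beside 2635 of 18937 genes. The second vaccination lay between these days. From day 28 to day 45, JCHAIN and TNFRSF17 were called, both lower, against 28.79% of genes. From day 45 to day 60 no member was called by edgeR (background 8.602%), none by DESeq2 or limma voom, and 1 (POU2AF1) had an unadjusted p under 0.05, beside 3708 of 18937 genes.

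For each member, differences between animals took up a larger share of the variance than differences between days. There were more animals than days, which alone raises the share of animals, and the shares were not adjusted for this. Differences between animals took up 77.1% of the variance of log2 CPM of POU2AF1 over all libraries, 66.6% for DERL3, 59.8% for JCHAIN, 57.7% for IRF4, 49.55% for XBP1, 48.7% for TNFRSF17, 46.96% for PRDM1 and 41.6% for MZB1. Differences between days took up 13.26% for TNFRSF17 and 0.882% to 8.42% for the other 7 genes. The mean JCHAIN level over an animal's libraries ran from 252 CPM in INR animal 40 to 944 CPM in COMBO animal 16, a 3.75-fold range. Mean POU2AF1 ran from 85.9 CPM in AAC animal 21 to 328 CPM in AAC animal 49.

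Within single animals the joining chain, the chaperone and the survival receptor rose and fell together. In COMBO animal 3, JCHAIN went from 231 CPM on day 0 to 1050 CPM on day 13 and back to 367 CPM on day 45. In the same animal MZB1 went from 25.4 to 139 and 40.7 CPM and TNFRSF17 from 1.34 to 9.44 and 2.02 CPM, while POU2AF1 went from 148 to 190 and 167 CPM. The day 13 library of animal 3 held the highest MZB1 and TNFRSF17 of all libraries. COMBO animal 42 reached its highest JCHAIN on day 45, at 1114 CPM against 375 CPM on day 0, with MZB1 at 109.06 CPM against 28.1 CPM. INR animal 43 had TNFRSF17 at 5.28 CPM on day 13 and 0.591 CPM on day 60, an 8.92-fold range. The highest day was thus not shared by all animals. TNFRSF17 was highest on day 13 or 28 in 19 of 26 animals, JCHAIN, MZB1 and IRF4 in 16 of 26 each, and PRDM1 in 6 of 26, with 13 of 26 animals at their PRDM1 maximum on day 0.

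The joint variation was measured as the Pearson correlation of log2 CPM over all libraries, which share animals, days and depth, so it is given as a description. JCHAIN, MZB1 and TNFRSF17 correlated with each other at r = 0.85 to 0.87. The values hardly moved when animal and day means were removed (0.85 to 0.89). XBP1 joined MZB1 at r = 0.82 and IRF4 joined JCHAIN at r = 0.78. POU2AF1 and DERL3 formed a second pair with r = 0.78, and POU2AF1 correlated with MZB1 at only r = 0.17 and with TNFRSF17 at 0.18. These 2 values were 0.35 and 0.29 after removal of animal and day means. By the same removal DERL3 went from 0.39 to 0.61 with MZB1 and from 0.31 to 0.51 with TNFRSF17, so it was less apart within animals. PRDM1 correlated negatively with POU2AF1 (r = -0.34) and DERL3 (r = -0.25). DERL3 has SMARCB1, a chromatin remodelling subunit, as its RefSeq neighbour, and the log2 CPM of the pair correlated at r = 0.74, and at 0.82 after removal of animal and day means.

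**Figure D3:**
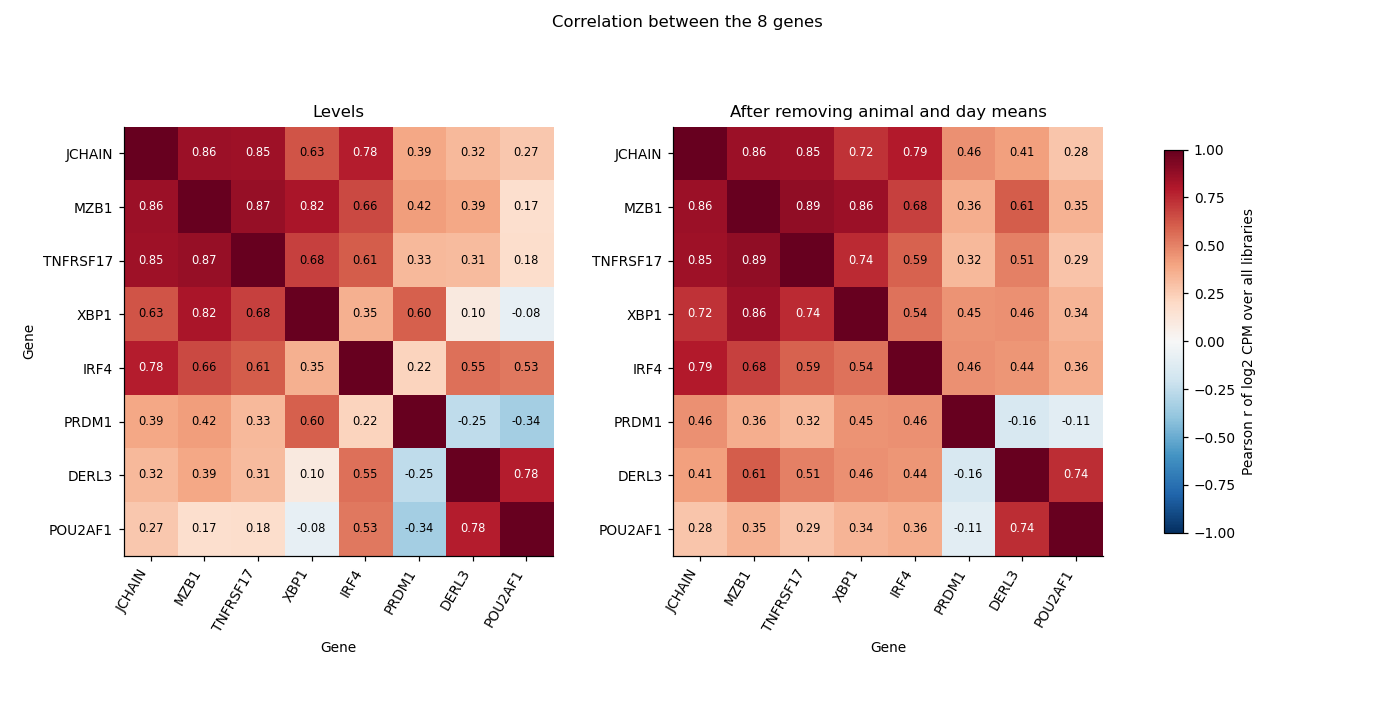
Pearson r of log2 CPM between each pair of the 8 genes over all libraries, as measured (left) and after removal of animal and day means (right), on a colour scale from -1 (blue) to 1 (red). JCHAIN, MZB1 and TNFRSF17 form a block at 0.85 or above in both panels. DERL3 correlates with the genes of this block at 0.31 to 0.39 on the left and 0.41 to 0.61 on the right. POU2AF1 does so at 0.17 to 0.27 on the left and 0.28 to 0.35 on the right.

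The genes most like each member in level were then sought in the whole table with the other members left out. The other members would have ranked among the closest 5 in 5 cases. For JCHAIN these were MZB1 (r = 0.86) and TNFRSF17 (0.85), for TNFRSF17 they were MZB1 (0.87) and JCHAIN (0.85), and for IRF4 JCHAIN (0.78) was the closest gene of all. Outside the members, the closest genes to JCHAIN were TXNDC5, a disulfide isomerase abundant in plasma cells (r = 0.92), BHLHA15, a transcription factor of secretory cells (0.89), LOC112443203 (0.86), PDIA4, a disulfide isomerase (0.83), and TRAM2 (0.83). LOC112443203 is annotated by RefSeq as a variable segment. Outside the members, MZB1 was closest to BHLHA15 and TXNDC5 (both 0.95), PDIA4 (0.93), MANF (0.93) and CRELD2 (0.91), the last 2 being secreted factors induced by stress of the endoplasmic reticulum. The closest non-members for TNFRSF17 were TXNDC5 (0.88), SEC11C, a subunit of signal peptidase (0.85), BHLHA15 (0.84), LOC112443203 (0.81) and CRELD2 (0.80). After JCHAIN, the closest genes to IRF4 were LOC112445688, another variable segment (0.78), TXNDC5 (0.77), LOC112443203 (0.75), the pseudogene LOC112442070 (0.71) and LRRC59 (0.71).

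XBP1 was closest to MOGS, the glucosidase that starts trimming of N-glycans (0.87), SEC61A1, the pore through which proteins enter the endoplasmic reticulum (0.86), MANF (0.86), TXNDC11 (0.84) and HSPA5, the chaperone BiP (0.84). PRDM1 was closest to DNAJB9, a cochaperone (0.74), PIK3R5 (0.71), ERN1, the stress sensor IRE1 that splices XBP1 (0.71), and PTGER4, a receptor for prostaglandin E2 (0.69). DERL3 was closest to RNPS1 (0.83), INTS11 (0.82), SCAMP4, RXRB (both 0.81) and PHGDH (0.80). POU2AF1 was closest to CD79B of the B cell receptor (0.91), SMAGP, GPX7, LOC107131187 (0.88 each) and BLNK, an adaptor of B cell receptor signalling (0.87).

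After removal of animal and day means, MZB1 was the gene closest to TNFRSF17 (0.89) and JCHAIN the gene closest to IRF4 (0.79). Outside the members, the closest genes were TXNDC5 for JCHAIN (0.90), MZB1 (0.95) and TNFRSF17 (0.88). The variable segment LOC112445656 was among the 3 closest non-members for each of these, at 0.87, 0.95 and 0.86. The remaining non-members were LOC112443203 for JCHAIN (0.87), BHLHA15 for MZB1 (0.94) and TXNDC11 for TNFRSF17 (0.86). For XBP1 they were MANF, DNAJB11 and HSPA5 (0.89, 0.89 and 0.88), and for PRDM1 they were PTGER4, DNAJB9 and PFKFB3 (0.69, 0.67 and 0.64). The closest non-members for IRF4 were LOC112445688, TXNDC5 and ATP7B (0.78, 0.77 and 0.74). DERL3 had INTS11, JTB and SUCLG1 (0.85, 0.83 and 0.83), none of them a secretory gene, and POU2AF1 had GPX7, PQLC3 and APEX1 (0.84, 0.83 and 0.83).

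The non-members closest to JCHAIN, MZB1 and TNFRSF17 in level were 8 in all. TXNDC5 was called over time, with a log2 change of 0.21 ± 0.10 at day 13 (edgeR FDR = 0.0995) and 0.29 ± 0.10 at day 28 (FDR = 0.0164), as was LOC112443203, with 0.36 ± 0.15 (FDR = 0.0557) and 0.43 ± 0.14 (FDR = 0.0153). PDIA4 (0.18 ± 0.08, FDR = 0.062) and TRAM2 (0.19 ± 0.08, FDR = 0.0569) were higher on day 28 and not called on day 13. BHLHA15, MANF, CRELD2 and SEC11C were called on neither day, with BHLHA15 at 0.19 ± 0.13 and 0.18 ± 0.13. These genes were picked for their likeness to the members over the same libraries, so their changes are not independent of the members' own.

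Mean levels of whole gene lists were set beside the members, again as a description over all libraries. The mean log2 CPM of 50 genes of antibody folding and secretion correlated with XBP1 at r = 0.88, MZB1 at 0.85 and TNFRSF17 at 0.69, and with DERL3 at 0.28 and POU2AF1 at 0.04. With animal and day means removed, the values were 0.87, 0.91, 0.80, 0.58 and 0.35. The mean of 22 B cell markers correlated with POU2AF1 at r = 0.84 and DERL3 at 0.62, and with JCHAIN at -0.09, MZB1 at -0.22 and PRDM1 at -0.54. With animal and day means removed, these were 0.57, 0.33, -0.30, -0.33 and -0.31. The mean of 26 cell cycle genes correlated at 0.59 with JCHAIN and MZB1 and at 0.61 with TNFRSF17. After removal of animal and day means the cell cycle values were 0.43, 0.48 and 0.55. The mean of 12 T cell markers correlated with JCHAIN, MZB1, TNFRSF17 and XBP1 at 0.05, 0.30, 0.25 and 0.52. After the same removal these were 0.34, 0.49, 0.47 and 0.54.

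The other genes of the pathway were followed in 2 lists, which are read beside the share of all genes called. Of 21 other plasma cell genes tested, 4 were higher and 1 lower on day 13 than on day 0, beside 17.29% and 15.92% of all genes, with a list median of 0.06 on the log2 scale. The higher ones included SDC1 (log2 change 1.10 ± 0.37, edgeR FDR = 0.0199, at levels near 0), the homing receptor CCR10 (0.37 ± 0.13, FDR = 0.0318) and PDK1 (0.28 ± 0.08, FDR = 0.00533), and the lower one was the gut homing receptor CCR9 (-0.38 ± 0.08, FDR = 0.00017). On day 60, beside 16.99% of all genes higher and 16.38% lower, 1 was higher, FCRL5 (0.36 ± 0.08, FDR = 0.00018), and 4 were lower, among them CCR9 (-0.58 ± 0.08), CD27 (-1.11 ± 0.38) and FKBP11 (-0.19 ± 0.07). Of 50 genes of antibody folding and secretion, 2 were higher and 8 lower on day 13, and 2 higher and 14 lower on day 60, beside the same shares of all genes. The list medians were -0.05 on day 13 and -0.04 on day 60. LMAN1, a cargo receptor for export from the endoplasmic reticulum, was higher on day 13 (0.17 ± 0.04, FDR = 0.000486). SRP9 of the signal recognition particle (-0.15 ± 0.03), the retrieval receptor KDELR1 (-0.26 ± 0.07) and UAP1 (-0.14 ± 0.04) were lower. On day 60, ERN1 (-0.37 ± 0.07, FDR = 2.23e-05), KDELR1 (-0.28 ± 0.07) and SRP9 (-0.13 ± 0.03) were lower and ERO1B was higher (0.20 ± 0.06). No gene of either list was called from day 13 to day 28.

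Cell cycle genes rose in the same window as JCHAIN and TNFRSF17. Of 26 tested, 20 were higher and none lower on day 13, and 22 were higher and 1 lower on day 28, against 17.29% and 18.62% of all genes higher. TOP2A (0.44 ± 0.08, edgeR FDR = 2.31e-05), TYMS (0.28 ± 0.06), RRM2 (0.42 ± 0.09) and MKI67 (0.37 ± 0.08) led on day 13. By day 60, beside 16.99% of all genes higher and 16.38% lower, 4 were higher, among them TOP2A (0.28 ± 0.08), RRM1 (0.13 ± 0.04) and ZWINT (0.13 ± 0.05), and HMGB2 was lower (-0.16 ± 0.05). Dividing cells of other lineages carry the same transcripts, and the summed level of 9 erythroid markers rose from a median of 238 CPM on day 0 to 6112 CPM on day 13 and 2429 CPM on day 28. ALAS2, the first enzyme of haem synthesis in red cell precursors, rose by 3.65 ± 0.46 on the log2 scale at day 13. The part of red cell precursors in the cell cycle values was not tested.

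Of 22 B cell markers tested, 5 were higher on day 13, 9 on day 28, 12 on day 45 and 7 on day 60, beside 17.29%, 18.62%, 15.78% and 16.99% of all genes. Their median log2 changes were 0.01, 0.14, 0.19 and 0.12 on these days. The lower ones numbered 1 on day 45 and none on days 13, 28 and 60. Their summed level had medians of 3584, 3604, 3890, 4204 and 4111 CPM on the 5 days. On day 13 the called genes included CD72 (0.31 ± 0.06, edgeR FDR = 2.2e-05), CD40 (0.33 ± 0.06) and CR2 (0.26 ± 0.08). On day 60 those with the smallest p were CR2, the complement receptor of mature B cells (0.73 ± 0.08, FDR = 2.31e-13), CD40 (0.42 ± 0.06), BANK1 (0.45 ± 0.08) and CD72 (0.33 ± 0.06). POU2AF1 shared the maximum of these sums on day 45 by its daily medians.

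Counts for the other cell types are read beside 17.29% of all genes higher and 15.92% lower on day 13, and 16.38% lower on day 60. T cell markers had 1 of 12 lower on day 13 (IL7R, -0.43 ± 0.10) and 1 of 12 on day 60 (IL7R, -0.44 ± 0.10). Of 12 plasmacytoid dendritic cell genes, which share TCF4 and IRF8 with B cells, 2 were higher and 2 lower on day 13. Their summed level had daily medians between 1104 and 1244 CPM. Platelet markers were higher in 6 of 7 on day 13 (PF4, 0.58 ± 0.11), and neutrophil markers were lower in 5 of 11 and higher in 2 (S100A8, -0.89 ± 0.15; ARG1, 3.696 ± 0.41). The part of these cells in the members' values was not tested.

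The antibody genes themselves could be followed only in part, as 4 of 15 listed immunoglobulin genes stood in the table by symbol. IGHM, the heavy chain of IgM, had a median of 6.79 CPM and was listed at 0 in 30 libraries. IGHG1 was listed at 0 in 98 libraries and reached 870.0 CPM in another. IGLL1 was listed at 0 in 5 libraries, with a median of 11.04 CPM, and IGHE was above 0 in all, with 13.31 to 2562 CPM. JCHAIN was at 177 CPM or more in all libraries. Whether a listed 0 for a heavy chain is absence or a failed estimate was not tested. None of the 4 was called on days 13, 28 or 45 by edgeR, and IGHE was higher on day 60 (log2 change 0.41 ± 0.19, FDR = 0.0905). As a list their mean correlated with the members at r between 0.05 and 0.16.

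The disease label was compared at each day with equal weight for the 3 treatments (edgeR, 30 group means). Almost no gene of the table was called: the background was 0.01584% of genes on day 0, 0.005281% on days 28 and 60 and 0% on days 13 and 45. No member was called on any day by edgeR, DESeq2 or limma voom. By unadjusted p under 0.05 there were 2 members on day 0 (XBP1 and TNFRSF17), 2 on day 28 (MZB1 and XBP1) and none on the other days. Of 18937 genes, 1347, 716, 1635, 800 and 689 had such a p on the 5 days. The estimates for JCHAIN, MZB1, XBP1, PRDM1, TNFRSF17 and IRF4 lay above 0 on each of the 5 days. The fit weighs the 3 COMBO animals with BRD, all of 1 pen, as much as the 7 INR animals. On day 60 the plain medians of BRD animals lay below those of healthy animals for JCHAIN (353.5 against 375.2 CPM), MZB1 (39.7 against 41.4 CPM), TNFRSF17 (1.76 against 2.07 CPM) and IRF4 (173.9 against 180.8 CPM). In the pens that held both labels, with pen as a term, the estimates for IRF4 lay below 0 on all 5 days and those for JCHAIN on 4 of 5, none of them called.

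On day 0 TNFRSF17 ran from 1.13 to 3.19 CPM in the 12 healthy animals (median 1.65) and from 0.727 to 5.96 CPM in the 14 BRD animals (median 2.21). The BRD animals thus held both the lowest and the highest library, and the groups overlapped. The log2 difference was 0.55 ± 0.28 (SE; edgeR FDR = 0.702). On day 28 MZB1 ran from 30.6 to 80.7 CPM in healthy animals (median 46.7) and from 26.8 to 130 CPM in BRD animals (median 65.96), a log2 difference of 0.58 ± 0.23 (edgeR FDR = 0.531). XBP1 on day 28 ran from 71.5 to 114.08 CPM in healthy animals (median 100.53) and from 65.1 to 168 CPM in BRD animals (median 114.97), a difference of 0.27 ± 0.10 (edgeR FDR = 0.522). The spread within each label was wider than the distance of the medians in each of these comparisons. An SE of 0.22 to 0.28 for JCHAIN, MZB1 and TNFRSF17 leaves differences of up to 2 SE open, so a p above the threshold does not show equal levels.

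**Figure D4:**
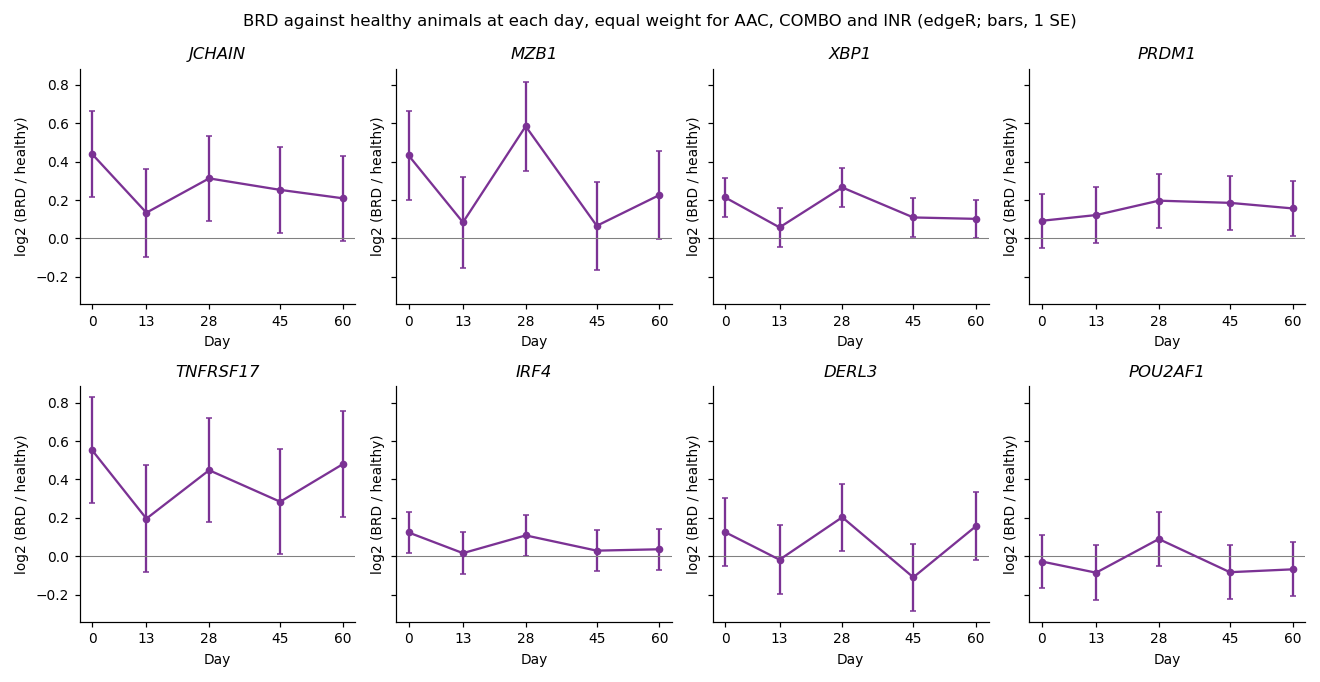
Log2 ratio of BRD to healthy animals for the 8 genes on each of the 5 sampling days, with bars of 1 SE (edgeR, equal weight for AAC, COMBO and INR). Points of JCHAIN, MZB1, XBP1, PRDM1, TNFRSF17 and IRF4 lie above 0 on all 5 days, and no point passed an FDR of 0.10.

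The changes from day 0 were also compared between the labels, which takes out standing differences between animals. No gene of the table was called on day 13, 28, 45 or 60 by edgeR (background 0% on each), with 619, 863, 801 and 596 genes at an unadjusted p under 0.05. Calls by DESeq2 were 11, 5, 10 and 6 genes, and limma voom made none. No member was called by any of the 3 tools, and none had an unadjusted p under 0.05. Fitted in each label alone, the TNFRSF17 change from day 0 to day 13 was 0.73 ± 0.20 in healthy animals (9 of 11 higher) and 0.52 ± 0.23 in BRD animals (10 of 14 higher, not called), and the difference of the changes was -0.20 ± 0.31 (edgeR FDR = 1). For JCHAIN the changes were 0.49 ± 0.17 (9 of 11 higher) and 0.27 ± 0.16 (8 of 14 higher, not called), with a difference of -0.22 ± 0.24. PRDM1 on day 28 fell by 0.36 ± 0.11 in healthy and by 0.33 ± 0.12 in BRD animals.

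Treatments were compared at each day, separately in healthy and in BRD animals, as the 3 possible pairs of AAC, COMBO and INR. In healthy animals (15 comparisons of 8 members, 120 values, edgeR) no member was called, DESeq2 called 3 and limma voom 0. An unadjusted p under 0.05 was found for 31 of 120 values. Beside them, 596 to 2805 of 18269 genes had such a p in each comparison. The background at FDR under 0.10 was 0.06240% of tests for AAC against INR, 0.03832% for AAC against COMBO and 0.01423% for COMBO against INR, over the 5 days together. The DESeq2 calls were POU2AF1 for AAC against COMBO on day 0, PRDM1 for COMBO against INR on day 0 and JCHAIN for AAC against INR on day 13. Over all genes, DESeq2 called 211, 95 and 426 in these comparisons, where edgeR called 34, 5 and 57. On day 0 PRDM1 was 66.95, 76.9, 83.2 and 115.13 CPM in COMBO and 45.3, 46.9, 50.8 and 58.4 CPM in INR. These 2 groups did not overlap, and the log2 difference was 0.77 ± 0.20 (edgeR FDR = 0.227). How often genes of the whole table did not overlap between groups of this size was not counted, for this or the later comparisons.

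On day 13 JCHAIN was 574, 592 and 1090 CPM in healthy AAC animals and 234, 287, 303 and 530 CPM in healthy INR animals. The groups did not overlap, and INR animal 50, whose library stood apart, held the lowest value. The log2 difference was 1.14 ± 0.35 (edgeR FDR = 0.134), and it was 1.005 without animal 50 (FDR = 0.533) and 0.78 without AAC animal 46 (FDR = 0.414). Left out in turn, COMBO animal 3 and INR animal 7 each brought it to a call (FDR = 0.0974 and 0.0868). Calls over all genes in this comparison rose as well, from 57 to 326 without animal 3 and to 146 without animal 7. Animal 3 was in neither of the groups compared. On day 0, when supplements began, the JCHAIN difference of the same groups was 0.92 ± 0.33 (FDR = 1).

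In BRD animals 1 of 120 values was called by edgeR, and DESeq2 and limma voom called 5 each. An unadjusted p under 0.05 was found for 30 of 120 values. Beside them, 529 to 4238 of 18477 genes had such a p in each comparison. The background at FDR under 0.10 was 0.5888% of tests for AAC against INR, 3.864% for AAC against COMBO and 0.1873% for COMBO against INR. The call was POU2AF1 for AAC against COMBO on day 0, where 12.89% of genes were called. POU2AF1 was 92.8, 112.10, 117.04 and 121.9 CPM in the 4 AAC animals and 254, 255 and 256 CPM in the 3 COMBO animals, while the 7 INR animals lay between, from 130.91 to 220.4 CPM (median 162). The 3 groups did not overlap. The log2 difference was -1.20 ± 0.26 (edgeR FDR = 0.00289). It was called without each animal in turn, with values between -1.22 and -1.11. The summed B cell markers of these libraries ran from 1804 to 2775 CPM in AAC and from 3624 to 6076 CPM in COMBO, also without overlap, and their part in the POU2AF1 value was not tested. The difference was there on day 0, when supplements began, although the COMBO animals had been drenched before shipment, and since those 3 animals shared a pen, pen and treatment cannot be told apart. In healthy animals the same difference had the opposite sign: POU2AF1 was 162, 177, 269 and 308 CPM in AAC and 77.4, 143, 144 and 148 CPM in COMBO (0.82 ± 0.24, edgeR FDR = 0.20). The difference between the labels was not tested.

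On the later days in BRD animals, edgeR called no difference in POU2AF1 between AAC and COMBO. On day 13 the values were 94.1, 113.5, 125.8 and 194 CPM in AAC and 170, 185 and 217 CPM in COMBO, so the groups overlapped, with a log2 difference of -0.55 ± 0.26 (edgeR FDR = 0.216). It was -0.95 ± 0.26 on day 28 (edgeR FDR = 0.107), where DESeq2 and limma voom called it (FDR = 0.0479 and 0.0284), -0.70 ± 0.26 on day 45 (edgeR FDR = 0.481) and -0.69 ± 0.26 on day 60 (edgeR FDR = 0.284). On day 28 the values were 83.2, 146, 161 and 181 CPM in AAC and 245, 280.3 and 301 CPM in COMBO, without overlap. Between AAC and INR the edgeR differences in POU2AF1 were -0.58 ± 0.22 on day 28 (FDR = 0.231), -0.68 ± 0.22 on day 45 (FDR = 0.203) and -0.61 ± 0.22 on day 60 (FDR = 0.171), and the groups overlapped on each of these days. DESeq2 called it on days 45 and 60 (FDR = 0.0901 and 0.0974) and limma voom on days 28, 45 and 60 (FDR = 0.0912, 0.0771 and 0.0589). DESeq2 also called XBP1 between AAC and INR on day 28, with edgeR at 0.47 ± 0.15 (FDR = 0.16) and overlapping groups. Both tools called POU2AF1 between AAC and COMBO on day 0. Calls over all genes by DESeq2, limma voom and edgeR were 2844, 2306 and 2382 for AAC against COMBO on day 0. They were 258, 211 and 69 for the same pair on day 28. For AAC against INR they were 399, 331 and 59 on day 28, 241, 141 and 27 on day 45, and 676, 859 and 224 on day 60.

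On day 60 MZB1 and JCHAIN lay higher in the 3 COMBO animals with BRD than in each other BRD animal, and TNFRSF17 higher than in each INR animal. MZB1 was 78.8, 80.3 and 102.01 CPM in COMBO, 23.3 to 43.5 CPM in the 7 INR animals (median 30.4) and 28.8 to 73.51 CPM in the 4 AAC animals. TNFRSF17 was 3.87, 4.42 and 6.67 CPM in COMBO, 0.591 to 2.23 CPM in INR (median 1.51) and 1.16, 1.21, 3.73 and 5.13 CPM in AAC. JCHAIN was 611, 906 and 928 CPM in COMBO, 212 to 463 CPM in INR (median 332) and 304 to 556 CPM in AAC. For all 3 genes COMBO did not overlap INR, and for TNFRSF17 it overlapped AAC. The share of all genes without overlap was not counted here either. These 3 genes correlated with each other at r = 0.85 to 0.87 over all libraries, so they are not separate observations. None was called: the log2 differences between COMBO and INR were 1.43 ± 0.39 for MZB1 (edgeR FDR = 0.488), 1.76 ± 0.49 for TNFRSF17 (FDR = 0.502) and 1.34 ± 0.39 for JCHAIN (FDR = 0.534).

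**Figure D5:**
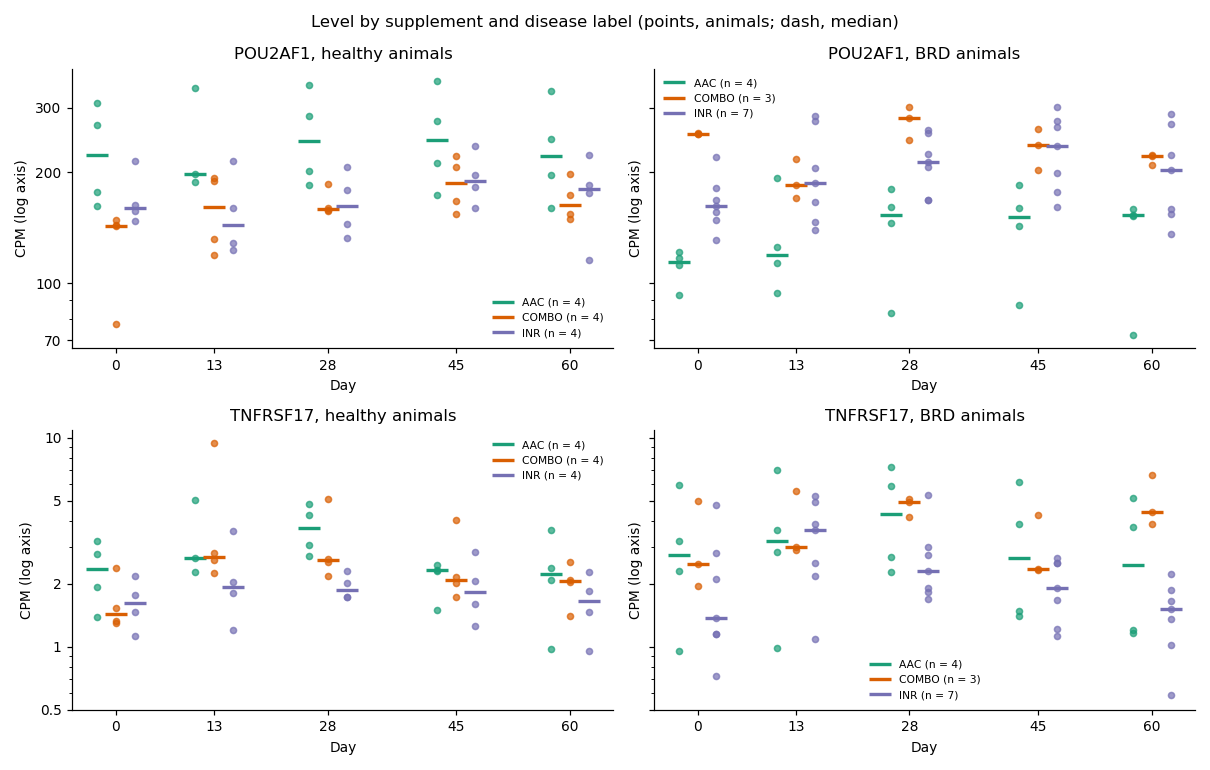
CPM (log axis) of POU2AF1 (top) and TNFRSF17 (bottom) by day and treatment in healthy (left) and BRD (right) animals, with a point for each animal and a dash for the group median. On day 0 the 3 COMBO animals with BRD sit at 254 to 256 CPM of POU2AF1, above the 4 AAC animals at 92.8 to 121.9 CPM.

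The change from day 0 was compared between treatments within animals, over both labels. No member was called at any of the 12 comparisons by edgeR, DESeq2 or limma voom, and 2 of 96 values had an unadjusted p under 0.05, both of IRF4. Beside them, 547 to 2141 of 18937 genes had such a p in each comparison. The background at FDR under 0.10 was 0.2376% of tests for AAC against COMBO and 0% for the other pairs.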

How the data were processed

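Whole blood had been drawn into Tempus tubes and sequenced as stranded mRNA libraries on an Illumina NovaSeq. The deposited values were raw read counts per gene, which the authors made with Trimmomatic 0.39, HISAT2, StringTie 2.2.0 and its count script on the ARS-UCD1.3 assembly (versions per the labels; the HISAT2 version differed between the sources). From these counts, genes passing edgeR's filter by expression over the groups (treatment by label by day) were kept, TMM factors were computed, and CPM were taken on the scaled library sizes. Tests were edgeR 4.0.16 quasi-likelihood tests in R 4.3.3 with a common dispersion and Benjamini-Hochberg adjustment over all genes tested, called at FDR under 0.10. The test, dispersion and threshold are those of the study's edgeR step. The study kept only genes also found by a mixed model (glmmSeq, FDR under 0.05, pen and individual as random effects), which was not run here. Time and the change from day 0 were fitted with animal as a block. Label and treatment comparisons were fitted on group means, and the 59 libraries of healthy and 70 of BRD animals were fitted apart for treatments (18269 and 18477 genes). Animal numbers in the labels pair the libraries: deviations from group means correlated at a median of 0.37 within animals and -0.01 between animals. SE were taken from the estimate and its F statistic. Correlations used log2 CPM with a prior count of 2. Each animal is 1 replicate on a day. In treatment and label fits the day comparisons share animals but are tested within a day. The edgeR form of these fits had no animal term, so an animal's libraries entered the estimate of the spread as if independent. Each pen held 1 treatment by its day 0 number: AAC pens 2 and 8, INR pens 3, 4 and 7, COMBO pens 5 and 6. Pen is thus nested in treatment for all pairs.

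The 8 genes and the gene lists were chosen with earlier results of these data known. All 8 are named. From each other list up to 4 called genes with the smallest p are named for days 13 and 60 against day 0, day 28 against day 13 and the label comparisons, and for each member the 5 non-members most correlated in level and the 3 in residuals. Some genes that this rule names are not reported here. The time, label, change by label and healthy treatment fits were run on simulated counts with a set of genes changed. Those counts were drawn independently, with no animal or pen effect. They cannot show how repeated libraries of an animal or shared pens affect the fits. Alternatives were DESeq2 1.42.0, limma 3.58.1 voom with a correlation within animals, RLE factors, a trended dispersion, FDR 0.05, a total count of at least 10, a mean CPM of at least 1, no animal block, each label alone, pens 2, 3, 4 and 8 with a pen term, treatments pooled, single libraries left out and each animal left out. With each animal left out, the common dispersion of the fit to all animals was kept and not estimated again. RefSeq (ARS-UCD2.0) was used for names, biotypes and neighbours. As the build differs, no coordinates are given. Sequences and promoters were not used here. Precision is limited by the spread between animals, a biological coefficient of variation of 28.3% within animals over time and 39.0% in the label fit.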

Additional observations from a re-analysis of the deposited data

Results flagged for a closer look

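In 192 gene and group combinations (treatment, label and day, groups of 4 or 7 animals) the highest or lowest library stood apart from the others by Dixon's criterion in 16. Chance alone marks about 1 in 20 groups, and the members share libraries, so the 16 are not independent. The values are given without explanation.

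COMBO animal 3, healthy, was high on day 13 for MZB1 (139 CPM, the other 3 at 43.7 to 47.8), TNFRSF17 (9.44 CPM, others 2.26 to 2.81) and XBP1 (158 CPM, others 94.5 to 98.39), and on day 28 for JCHAIN (775 CPM, others 454 to 490.3). COMBO animal 42, healthy, was high on day 45 for JCHAIN (1114 CPM, others 338 to 412), MZB1 (109.06 CPM, others 39.7 to 41.5) and IRF4 (299.8 CPM, others 153 to 160). The same animal was high for JCHAIN on day 60 (718 CPM, others 323 to 356) and for POU2AF1 on day 28 (187 CPM, others 158 to 160). COMBO animal 6, healthy, was high for XBP1 (149.7 CPM, others 90.1 to 93.8) and low for POU2AF1 (77.4 CPM, others 143 to 148) on day 0. Of the AAC animals, animal 9 with BRD was high for XBP1 on day 45 (159 CPM, others 112.7 to 118.8), animal 21 with BRD was low for POU2AF1 on day 60 (72.3 CPM, others 152 to 159), and the healthy animal 34 was low for TNFRSF17 on day 45 (1.503 CPM, others 2.32 to 2.46). Of the healthy INR animals, animal 30 was low for JCHAIN on day 60 (236 CPM, others 364 to 397) and animal 7 was high for PRDM1 on day 13 (69.8 CPM, others 42.1 to 44.8).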

How the results depend on the processing

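Counts of called members are given out of 8 for each time comparison. The cause of each difference was not tested except where fewer animals or another threshold define the alternative. Calls over all genes moved too. Against day 0 they were 6289, 6825, 5861 and 6318 on days 13, 28, 45 and 60. At FDR 0.05 they were 4931, 5520, 4678 and 4982, and with limma voom 5775, 6430, 5360 and 5868. For other settings they are not given here, so a loss among the members is not separated from a general loss of calls. For day 13 against day 0 (3 called) the count was 1 with no replicate block (animal left out as a term) and 0 in BRD cattle only, and it was 2 at FDR 0.05 and in healthy cattle only, both without PRDM1. For day 28 (6 called) it was 3 with no replicate block, 2 in healthy cattle only and 2 in BRD cattle only, and it was 5 at FDR 0.05, without IRF4. For day 45 (2 called) it was 0 with no replicate block and 1 with limma voom, at FDR 0.05, in healthy cattle only and in BRD cattle only. For day 60 (2 called) it was 1 with limma voom, with no replicate block, at FDR 0.05 and in BRD cattle only, and 0 in healthy cattle only. For day 45 against day 28 (2 called) it was 0 with no replicate block and in either label alone, 1 at FDR 0.05 and with a total count of at least 10, and 4 with a mean CPM of at least 1. With each animal left out the counts ran from 2 to 3 at day 13, 5 to 6 at day 28 and 1 to 2 at days 45 and 60. By treatment (120 values per label) DESeq2 gave 3 calls in healthy cattle (0 in the main analysis) and 5 in BRD cattle (1), where a mean CPM of at least 1 gave 2 and limma voom 5. With an animal left out these ran from 0 to 2 and from 1 to 4. Under the alternatives run, no member was called by disease label or by change from day 0 between labels or treatments, and no called member changed sign. The block changed no other call. Leaving out the day 13 library of animal 50, chosen after seeing the data, gave 2 called members at day 13, since PRDM1 was lost, and the main counts for the other days. Leaving out the day 60 library of animal 40 gave the main counts. Leaving out each animal was not run for the change between treatments, nor for comparisons between neighbouring days. TNFRSF17 and MZB1 had the largest standard errors of the members in the time comparisons, 0.147 to 0.154.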
